A study of Rattus norvegicus with 22 samples.

Results

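Contused rat spinal cord that had been given tempol on top of buthionine sulfoximine (BSO) was compared with contused cord given BSO alone, to find what tempol changed when glutathione synthesis had been blocked. The comparison took the 3 arrays labelled tempol and BSO and the 3 arrays labelled BSO, 6 of the 22 arrays of the series, and every probe set other than the platform's own controls, 31042 in all. No probe set passed the test, and the genes named below are described with that result in view.

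All 6 cords shared the injury and the BSO. A 10 g weight with a tip 2.5 mm across fell 25 mm onto the cord at thoracic segment 10. BSO was injected intraperitoneally at 150 mg/kg, 24 h before the injury, in both groups. The first group also received tempol intraperitoneally at 275 mg/kg, 20 min after the injury, and the series title places the samples 24 h after contusion and treatment. The BSO group carried no stated vehicle in place of tempol. Cords were taken after perfusion with buffered saline and stored in an RNA preservative. The sources used here do not give strain, age, the length of cord taken or whether each array came from its own rat. The p-values below therefore measure only the spread between arrays, which may be technical. In the limma fit that spread was pooled over all 22 arrays of the series.

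Glutathione is a small thiol that cells use to reduce peroxides and to conjugate reactive molecules, and glutamate-cysteine ligase makes its first intermediate. BSO inhibits that ligase and so lowers glutathione. Tempol is a cell-permeable nitroxide that removes superoxide in the manner of superoxide dismutase. In contused cord, bleeding, invading leukocytes and damaged mitochondria are known sources of superoxide and peroxide, and the transcription factor NRF2 is known to drive many of the genes that make glutathione and thioredoxin-dependent enzymes.

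The arrays had markers of central nervous tissue, and that it was spinal cord rests on the labels. Across the 6 arrays the signal (a linear scale, fluorescence summarised per probe set) of Gfap, the astrocyte filament, lay between 9347 and 16678.1, that of Mbp, a myelin protein, between 19105.8 and 51276.3, and that of the synaptic gene Snap25 between 1143.3 and 5501.1. Chat, the acetylcholine-synthesising enzyme of motor neurons, was low, at 15.2 to 133. The Hox genes Hoxc8, Hoxc9 and Hoxa9 were also low, at 57 to 138, 30 to 162.9 and 10 to 196.1. Alb, albumin, read 221.8 to 2387.6. Correlations of log2 signal were 0.710 to 0.761 between arrays of the same group and 0.681 to 0.803 between arrays of different groups, so arrays were no more alike within a group than across groups. The ratio of the 3′ to the 5′ control probe sets of GAPDH, a measure of how complete the RNA was, separated the groups. Its log2 value was 0.37, 0.16 and 0.26 with tempol and BSO and 0.55, 0.63 and 0.58 with BSO alone (two-sided exact permutation p = 0.1, the smallest that 3 against 3 arrays allow). The same ratio for actin did not separate them (p = 0.8, same exact test). With this ratio added to the limma fit, 1741 probe sets had an unadjusted p under 0.05, in place of 1283 without it. The smallest limma adjusted p was 0.185 in place of 0.409. No probe set passed in either fit, so that this count cannot show the part of RNA completeness in the differences below. That part was not tested further.

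With limma and Benjamini-Hochberg adjustment over all 31042 probe sets, 0 probe sets (0%) had an adjusted p under 0.05, and the smallest adjusted p was 0.409. At an unadjusted p under 0.05 there were 1283, of which 656 (2.11% of those tested) were higher with tempol and BSO and 627 (2.02%) were lower. A share of 0.05 of all probe sets would be 1552.1. The 3 tempol and BSO arrays all lay above the 3 BSO arrays for 1297 probe sets (4.18%) and all lay below them for 1232 (3.97%). The median difference over all probe sets, as log2 of tempol and BSO over BSO, was 0.01, and its median standard error (SE) was 0.68.

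The 10 probe sets with the smallest p in each direction are described first, among those with 1 gene symbol, arrays that did not overlap and a mean signal of at least 64. They were chosen by these 6 arrays, so that a lack of overlap between the groups is part of the choice and no support.

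Fbxo3, which encodes the substrate-binding part of a ubiquitin ligase, had the smallest p of all. Its signal was 203.0, 193.5 and 90.1 on the tempol and BSO arrays and 22.2, 28.5 and 25.8 on the BSO arrays, a log2 difference of 2.59 ± 0.44 (SE; limma adjusted p = 0.409). All 3 BSO arrays lay below each of the other 16 arrays of the series, which ran from 53 to 349.6. The tempol and BSO arrays lay inside that range. With 32 added to each signal before taking log2, the difference was 1.70.

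Usp47, a deubiquitinating enzyme, read 450.8, 369.6 and 366.0 with tempol and BSO and 98.1, 47.7 and 45.8 with BSO. Here the tempol and BSO arrays were the ones outside the rest of the series, above all 16 other arrays (58.1 to 361.0). Hdac1, a histone deacetylase, read 367.8, 250.7 and 124.0 against 64.9, 51.7 and 32.9. Its BSO arrays lay below the other 16 (84.3 to 327.9). The log2 differences were 2.72 ± 0.58 for Usp47 and 2.23 ± 0.50 for Hdac1 (SE).

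Camkv, a kinase-like protein of dendritic spines, read 104.5, 296.6 and 446.0 against 85.1, 26.9 and 28.3, and its lowest tempol and BSO array lay close to the highest BSO array. Nlgn2, an adhesion molecule of inhibitory synapses, read 172.8, 171.3 and 139.5 against 91.5, 16.6 and 36.3, with even values in the first group and a wide spread in the second. Faim2, an inhibitor of Fas-mediated death in neurons, read 247.0, 192.7 and 202.5 against 60.7, 75.9 and 28.3. Log2 differences were 2.58, 2.08 and 2.07 in that order. The other 4 were Herpud1 (below), Acer3, an alkaline ceramidase, at 1.51, Mrpl39, a mitochondrial ribosomal protein, at 2.14, and Rab38, a small GTPase of vesicle traffic, at 2.21.

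Among the 10 lower probe sets, Msto1, a protein needed for mitochondrial shape and distribution, read 15.2, 13.7 and 25.1 with tempol and BSO and 122.9, 161.0 and 86.9 with BSO. All 3 tempol and BSO arrays lay below the other 16 arrays (35.2 to 292.8), and the log2 difference was -2.79 ± 0.61 (SE). Cutal read 186.5, 115.2 and 292.4 against 887.3, 1692.3 and 1883.3, the largest difference of the 20 at -2.94 ± 0.71. Its BSO arrays were high for the series, in which 15 of the other 16 arrays lay below the lowest of them.

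Fbp1, the fructose bisphosphatase of gluconeogenesis, read 44.3, 127.5 and 194.7 against 1069.5, 370.4 and 662.2 (-2.63). Ampd2, an AMP deaminase, read 78.4, 201.4 and 132.5 against 475.4, 920.0 and 761.5 (-2.44). Endov, an endonuclease that cuts RNA at inosine, read 49.4, 89.0 and 107.8 against 292.6, 353.7 and 226.6 (-1.88). These are log2 differences, and the groups were apart by the rule that chose them.

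Cdt1, which licenses DNA replication, read 18.2, 21.6 and 37.6 against 154.7, 191.6 and 97.4 (log2 difference -2.54). Creb5, a transcription factor that binds cyclic AMP response elements, read 135.0, 192.0 and 140.8 against 485.8, 460.3 and 332.7 (-1.45), and its tempol and BSO arrays lay below all 16 other arrays. Rassf4, Tmem181 and Fbxl22 had log2 differences of -2.32, -1.97 and -2.50. The adjusted p of these 20 ran from 0.409 to 0.979. Their mean signals lay between 79.09 and 395.1, none of them among the bright genes of the arrays, and the sources used here do not say whether the lowest readings were above background.

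**Figure D1:**
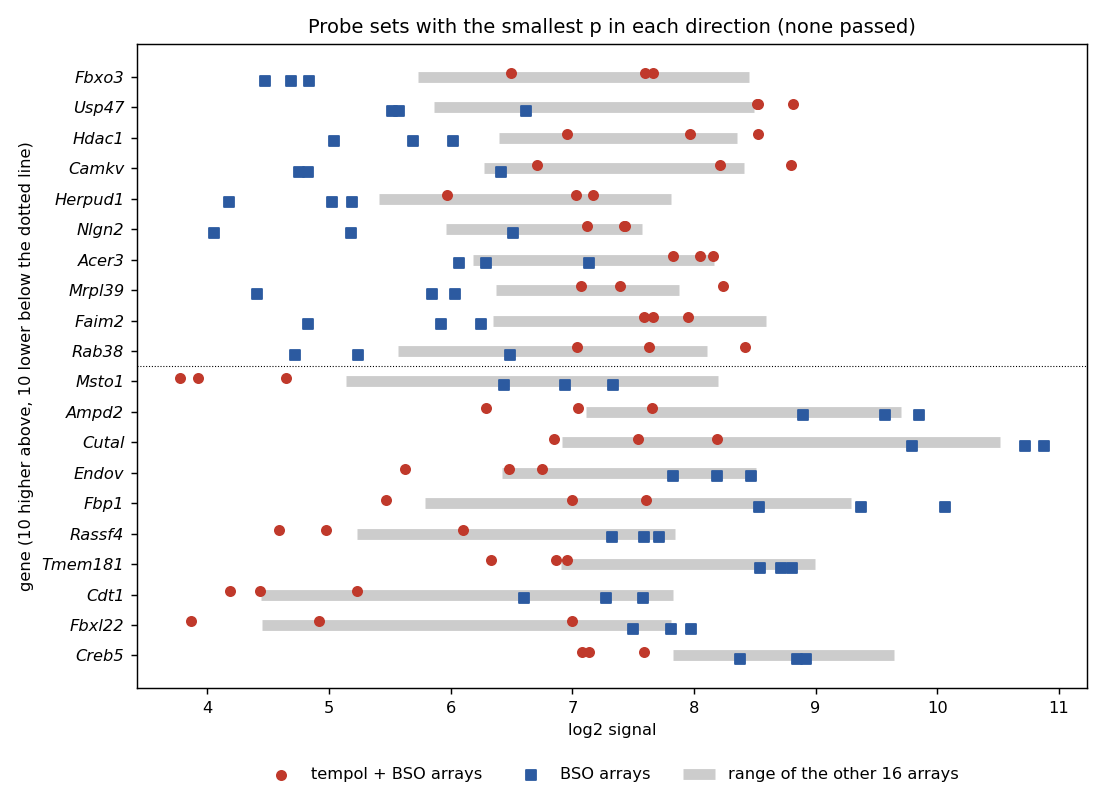
Log2 signal (horizontal axis) of the 20 probe sets with the smallest p, 10 higher and 10 lower with tempol and BSO; each point is 1 array and the grey bar spans the other 16 arrays of the series. The groups are apart by choice; the BSO arrays of Fbxo3, Hdac1, Herpud1, Mrpl39 and Faim2 and the tempol and BSO arrays of Msto1 and Creb5 lie below the whole grey bar.

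Of these 20 genes, 11 had other probe sets on the array, 17 in all, which gave readings that the choice had not used. The sign was the same for 9 of the 17. Only the second probe set of Hdac1 was again higher on all 3 tempol and BSO arrays, at 239.1, 267.4 and 205.9 against 112.3, 90.4 and 161.2 (log2 difference 1.00 ± 0.43 SE, limma adjusted p = 1.00).

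The other probe sets of Fbxo3 gave 0.38 ± 0.42 and 0.11 ± 0.85 in place of 2.59. The brighter of them read 347.0, 401.0 and 669.2 against 349.2, 299.3 and 407.0, with overlapping groups. For Msto1 the second probe set gave 0.60 ± 0.56 and for Ampd2 0.25 ± 0.79, both opposite in sign to the chosen one. The second probe set of Usp47 gave 1.28 ± 0.92, with overlapping arrays. All are log2 differences ± SE.

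The same was seen for genes at large. For the 4525 genes with more than 1 probe set, the differences of the 2 brightest probe sets had a Pearson r of 0.003 and a Spearman rho of -0.005 and shared a sign in 50.2% of genes. Where the weaker probe set had a mean signal of at least 1024 (35 genes), r was 0.15 and the sign was shared in 57.1%. These are correlations across genes, which are not independent replicates, and probe sets of a gene can read different transcripts.

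**Figure D2:**
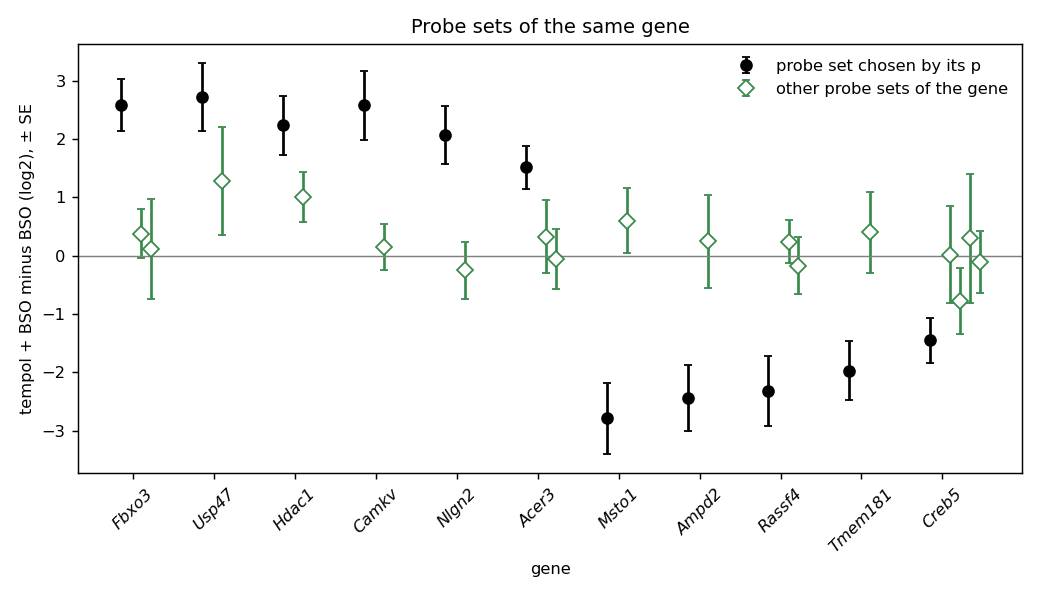
Log2 difference ± SE (vertical axis) for the chosen probe set (black) and the other probe sets (green) of the 11 leading genes that have more than 1. The green points lie between -0.78 and 1.28, nearer to 0 than the black point of the same gene in each case.

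Herpud1 and the unfolded protein response were examined in more detail, because a member of that list stood among the 20. Herpud1 is a membrane protein of the endoplasmic reticulum that takes part in the disposal of misfolded proteins and is induced by stress of that compartment. When misfolded protein builds up there, the factors ATF6 and XBP1 are known to bind the endoplasmic reticulum stress element, ERSE, and its variant ERSE-II in the promoters of chaperone genes. Both elements were searched for on both strands of the promoters that RefSeq gives for rat (build GRCr8, 250 bases before to 50 after the gene's start), ERSE as CCAAT and CCACG with any 9 bases between them, and ERSE-II as ATTGG and CCACG with any 1 base between them. The search was chosen after the values of Herpud1 had been seen. Of the 27 list genes, 24 had a promoter in the RefSeq table and 8 of them held a match, 7 for ERSE and 1 for ERSE-II. ERSE was found in 22 of all 33469 promoters (0.0657%) and ERSE-II in 17 (0.0508%). The matches of 7 genes are shown on the gene's strand with 6 bases on each side, the element in capitals, so that the genes can be compared with their values.
Herpud1 (ERSE-II, chr19:10614815-10614837, minus strand): gcgctgATTGGGCCACGttgggc
Creld2 (chr7:121789233-121789263, plus strand, element reversed): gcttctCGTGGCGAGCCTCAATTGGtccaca
Hspa5 (chr3:38452967-38452997, plus strand): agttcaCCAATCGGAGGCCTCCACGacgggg
Hsp90b1, further match (chr7:23012445-23012475, minus strand): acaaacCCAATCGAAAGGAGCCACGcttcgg
Hsp90b1, nearer match (chr7:23012341-23012371, minus strand, element reversed): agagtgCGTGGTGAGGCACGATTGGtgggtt
Xbp1 (chr14:84604552-84604582, plus strand): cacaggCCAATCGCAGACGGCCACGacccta
Dnajc3 (chr15:102432528-102432558, plus strand): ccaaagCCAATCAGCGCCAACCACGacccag
Calr (chr19:40213129-40213159, plus strand, element reversed): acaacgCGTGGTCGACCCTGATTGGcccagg

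Herpud1, with the ERSE-II match, read 130.6, 143.8 and 62.5 with tempol and BSO and 36.5, 18.1 and 32.5 with BSO (log2 difference 1.92 ± 0.46 SE, limma adjusted p = 0.905). Its BSO arrays lay below all 16 other arrays of the series (42.6 to 224.7). Creld2, a secreted chaperone-like protein of the endoplasmic reticulum, read 485.0, 633.8 and 326.8 against 92.8, 133.3 and 289.1 (1.60 ± 0.70, adjusted p = 1.00). These were the only 2 of the 27 list genes whose arrays were all higher, beside 4.17% of all 14217 genes.

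The other genes shown had much smaller differences. Hspa5, the main chaperone of the compartment, gave 0.18 ± 0.46, Hsp90b1 0.10 ± 0.47, and the lectin chaperone Calr 0.09 ± 0.66 (log2 ± SE). Xbp1 itself gave 0.37 ± 0.46 and the co-chaperone Dnajc3 0.30 ± 0.84. All 5 had overlapping arrays. The 8 genes with a match were all on the higher side, with a median of 0.24 and a range of 0.09 to 1.92. Apart from Herpud1 and Creld2, each of these differences was smaller than its SE. Whether a match goes with the difference was not tested. Over the 27 genes of the list the median was 0.00, and 13 were higher and 14 lower, as against 51.4% higher over all 14217 genes. On the ATF4 side of the list, Asns, asparagine synthetase, read 148.6, 244.3 and 243.3 against 433.0, 270.3 and 261.6, lower on all 3 arrays (-0.60 ± 0.42). It was the only 1 of the 27 genes whose arrays were all lower, beside 3.81% of all genes. Atf4, Ddit4, Chac1 and Trib3, added after their values were seen, gave -0.13, -0.36, -0.43 and -0.28. Whether the ATF4 side differed from the rest of the list was not tested.

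Glutathione genes are the ones that BSO acts next to. Gclc, the catalytic subunit of the ligase that BSO inhibits, read 652.8, 846.0 and 795.2 with tempol and BSO and 696.8, 696.5 and 1145.0 with BSO, a log2 difference of -0.11 ± 0.49 (SE). Gclm, its modifier subunit, gave 0.09 ± 0.58, Gss, which completes glutathione, 0.39 ± 0.58, and Slc7a11, the cystine carrier, 0.00 ± 0.60. The arrays of these 4 genes overlapped. Gsr, which reduces oxidised glutathione, read 153.9, 64.5 and 92.8 against 60.5, 55.3 and 29.1, and Gpx1, which uses glutathione to reduce peroxide, read 1152.9, 931.8 and 1058.5 against 891.1, 748.5 and 493.3. Both lay wholly above the BSO arrays, with differences of 1.08 ± 0.83 and 0.60 ± 0.54 that did not pass (adjusted p = 1.00 for each).

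Of 40 measured genes for glutathione synthesis and use, 20 were higher and 20 lower, with a median log2 difference of 0.00, and none passed. The 2 smallest p belonged to glutathione transferases, which attach glutathione to reactive molecules. Gstm1 read 84.5, 133.6 and 187.4 with tempol and BSO and 639.2, 450.3 and 349.5 with BSO, lower on every array (-1.86 ± 0.65, limma adjusted p = 1.00). Gstt2 read 42.9, 53.3 and 94.3 against 80.5, 903.7 and 369.4, with 1 overlapping array (-2.32 ± 0.74). Its second probe set was on the other side, at 139.3, 276.2 and 51.8 against 40.1, 46.9 and 63.5 (1.35 ± 0.77). Both genes belong to families of similar sequence, in which a probe set may read more than 1 member.

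The arrays of the NRF2 targets Hmox1, Nqo1 and Txnrd1 overlapped between the groups. Hmox1, the haem-degrading oxygenase, read 1389.1, 1809.4 and 2003.7 with tempol and BSO and 1550.6, 1669.7 and 1697.7 with BSO. All 6 arrays were above the uninjured and laminectomy arrays, whose highest signal was 724.4, while the 2 contused groups overlapped (0.07 ± 0.41, 95% interval -0.79 to 0.92). Nqo1, a quinone reductase, gave 0.12 with an interval of -0.67 to 0.91, and Txnrd1, thioredoxin reductase, 0.13 with an interval of -0.70 to 0.96. Each of the 3 intervals leaves out a 2-fold change (a log2 difference of 1) in either direction. Srxn1, sulfiredoxin, was too variable for that (0.18 ± 0.85). Of 22 NRF2 targets measured, 11 were higher and 11 lower, none passed, and the median was 0.03. Gsr, described above, was the 1 gene of this list whose arrays did not overlap. The smallest p of the list was that of Aox1, which read 37.5, 8.3 and 141.5 against 170.8, 92.8 and 103.7, with overlapping arrays (-1.74 ± 0.75).

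The enzymes that tempol imitates or that act after it were also measured. Sod1, the cytosolic superoxide dismutase, read 790.2, 722.4 and 410.2 with tempol and BSO and 50.5, 688.0 and 662.9 with BSO, so that the difference of 1.12 ± 0.81 came from 1 BSO array. Without that array it was -0.13. Sod2, the mitochondrial form, read 160.1, 374.5 and 513.3 against 390.2, 75.7 and 145.2 (0.95 ± 0.70), and catalase, Cat, gave 0.10 ± 0.51. Among the peroxiredoxins, which reduce peroxide with thioredoxin, Prdx2 gave 0.11 with an interval of -0.73 to 0.95 and Prdx5 0.01 with an interval of -0.77 to 0.79. The metallothioneins Mt1 and Mt2A gave -0.36 ± 0.69 and -0.16 ± 0.95. Of 22 superoxide, peroxide and thioredoxin enzymes, 13 were higher and 9 lower. None had arrays that did not overlap, beside 4.17% of all genes wholly above and 3.81% wholly below. At those shares, a list of 22 is too short for this count to set it apart.

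**Figure D3:**
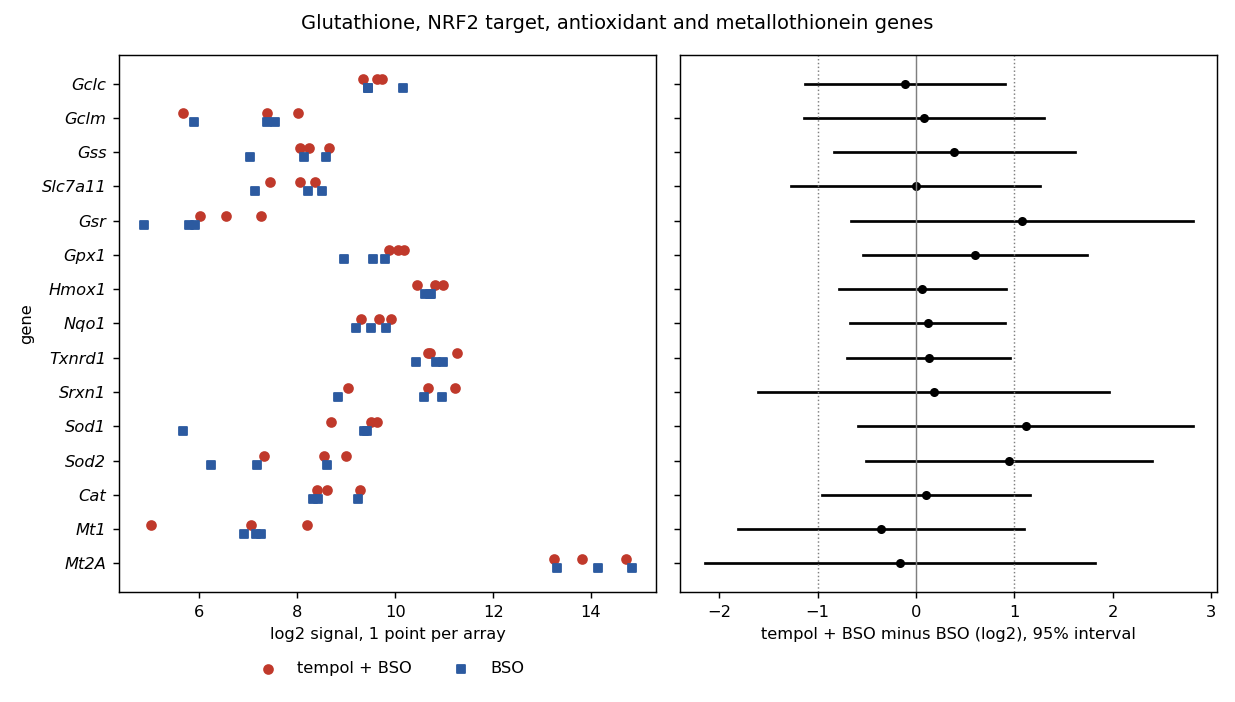
Left, log2 signal of 15 glutathione, NRF2 target, antioxidant and metallothionein genes, 1 point per array; right, the log2 difference with its 95% interval, dotted lines at a 2-fold change. Every interval holds 0, and those of Hmox1, Nqo1 and Txnrd1 lie within the dotted lines.

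How small a difference could have been seen depended on the signal. The 95% interval lay within a 2-fold change in both directions for 937 of 14217 genes (6.59%), each gene taken as its brightest probe set. Among probe sets the share was 0.247% below a signal of 64, 1.77% from 64 to 256, 11.4% from 256 to 1024 and 19.3% above that, with median SE of 0.84, 0.69, 0.52 and 0.48. For the faint genes that make up most of the array, a 2-fold difference was therefore within the error of this fit, which pooled the spread over all 22 arrays.

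The 937 genes included some that define the cells of the cord. Gfap differed by 0.07 ± 0.38 (SE), and the myelin genes Mag, Mobp and Cnp by -0.04, -0.19 and 0.08. Mag read 1183.9, 1401.7 and 1429.2 against 1196.6, 1420.4 and 1503, with both groups over the same range. The microglial receptor Trem2 and its adaptor Tyrobp differed by -0.01 and -0.03, and Spp1, osteopontin of activated macrophages, by 0.09. The neuronal genes Tubb3, a tubulin, Calb2, a calcium buffer, and Slc17a6, a glutamate transporter of vesicles, differed by -0.05, -0.07 and -0.09. These genes were picked for their narrow intervals, so that a 2-fold change outside the interval is part of the choice. Such intervals were found for 2 of 19 astrocyte markers, 6 of 22 oligodendrocyte genes, 3 of 16 microglia markers and 4 of 29 neuron markers. Other members differed more, with wide errors. The astrocyte genes Gjb6 and Aldh1l1 gave 2.14 ± 0.84 and -1.84 ± 0.88, and Gjb1 of oligodendrocytes gave 1.80 ± 0.77 (log2 ± SE). In tissue RNA, fewer cells of a type and less RNA per cell cannot be told apart.

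Marker lists for 14 cell types were counted in the same way, and no member of any list passed. Of macrophage and monocyte markers 16 of 25 were higher (median log2 difference 0.21), of neutrophil markers 8 of 12 (0.17), of microglia markers 5 of 16 (-0.03) and of T, B and NK cell markers 7 of 17 (-0.26), beside 51.4% and 0.02 over all genes. F13a1, a transglutaminase of macrophages, read 430.1, 386.7 and 313.3 against 251.8, 239.1 and 183.7, higher on all arrays (0.75 ± 0.37), but its second probe set gave 0.00 ± 0.74.

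Among leukocyte genes with arrays wholly lower, Aif1, the microglial calcium-binding protein, read 832.3, 1057.7 and 340.6 against 1507.2, 1407.8 and 1571.7 (-1.16 ± 0.82). The T cell receptor component Cd3e read 154.6, 106.4 and 154.0 against 215.8, 580.2 and 845.9 (-1.80 ± 1.01). The second probe sets of these genes were on the other side, at 0.37 ± 0.77 and 0.73 ± 0.50. Cd8a, a co-receptor of cytotoxic T cells, was at -0.86 ± 0.50, and its other probe sets at -0.38 and -0.61.

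Oligodendrocyte genes split. Beside the myelin genes above, with differences near 0, Gal3st1, which makes the myelin lipid sulfatide, read 292.4, 256.7 and 194.5 against 89.5, 32.1 and 73.5 (2.04 ± 0.93, limma adjusted p = 1.00). Sox10, the lineage's transcription factor, read 341.7, 200.6 and 298.2 against 166.9, 197.0 and 153.8 (0.67 ± 0.51). These were the only 2 of the 22 genes whose arrays were all higher, beside 4.17% of all genes. Aspa went the other way and was the lowest of the list. It read 136, 65.4 and 305.5 against 233.4, 308 and 235.7, with overlapping arrays (-0.88 ± 0.64). The median over 22 genes of the lineage was 0.01, with 12 higher.

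Of 15 genes of the meninges, 2 were lower and 1 was higher on all arrays, beside 3.81% and 4.17% of all genes. Slc6a13, a GABA and taurine transporter of the meninges, read 132.1, 98.7 and 136.0 against 277.5, 288.2 and 272.2, with the 3 BSO arrays close together (-1.21 ± 0.39, limma adjusted p = 1.00). Slc22a6, an organic anion transporter, was at -0.94 ± 0.44. Dcn, decorin, a matrix proteoglycan, read 790.9, 791.4 and 719.4 against 301.0, 672.2 and 593.9 (0.64 ± 0.39). In pericytes and smooth muscle, Notch3, the receptor of vessel wall cells, read 612.2, 863.2 and 357.9 against 1202.5, 1539.6 and 1056.9 (-1.12 ± 0.51). Over the lists, 11 of 15 meningeal genes were higher (median 0.16) and 6 of 14 pericyte and muscle genes (-0.17), so that these named members do not stand for their lists.

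Growth factors of neurons gave values on both sides. Ntf3, neurotrophin-3, read 144.2, 68.8 and 65.0 with tempol and BSO and 649.8, 294.5 and 345.9 with BSO, lower on every array (-2.23 ± 0.79, limma adjusted p = 1.00). Ngfr, the low-affinity neurotrophin receptor, was at -1.52 ± 0.61. Bdnf read 260.9, 292.6 and 235.1 against 119.9, 278.3 and 46.1 (1.18 ± 0.53), with overlapping arrays, and its second, faint probe set gave -0.19 ± 0.88. Ntrk2, the receptor for Bdnf, differed by 0.02 with an interval of -0.73 to 0.76. Of 17 genes in this list 7 were higher and none passed.

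Matrix and hypoxia genes had members that were higher on all 3 arrays. Plau, the urokinase protease, read 376.4, 439.6 and 387.3 against 207.8, 44.1 and 195.3 (1.72 ± 0.65), though its second probe set was on the other side, at -0.59 ± 0.56. Fn1, fibronectin, read 2670.1, 2143.0 and 1743.6 against 1264.0, 1470.6 and 1326.0 (0.67 ± 0.38). Car9, a carbonic anhydrase induced by low oxygen, read 638.0, 419.2 and 698.3 against 132.3, 130.9 and 390.2 (1.60 ± 0.58). Of matrix remodelling genes 19 of 27 were higher, with a median of 0.07, and of hypoxia and glycolysis genes 16 of 25, with a median of 0.17. Every adjusted p here was 1.00.

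Cell cycle and damage genes gave no common direction. Ccnb2, a mitotic cyclin, read 109.9, 178.3 and 109.7 against 270.2, 265.6 and 292.2 (-1.10 ± 0.49), and Birc5, survivin, 59.3, 32.5 and 37.0 against 105.9, 72.8 and 78.0 (-1.03 ± 0.51). Both were lower on all arrays, yet 15 of 31 cell cycle genes were higher and the median was -0.03. The stress kinase Plk3 was at 1.73 ± 0.62 and the stress sensor Gadd45b at -2.33 ± 1.00, in the same list of 17 genes with a median of 0.16.

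The most one-sided lists were those of housekeeping complexes, with small differences. Of 26 proteasome subunits, which degrade ubiquitin-tagged proteins, 22 were higher, with a median log2 difference of 0.14 and a range from -0.31 to 1.08. Of 29 oxidative phosphorylation genes 23 were higher, with a median of 0.12. None passed in either list, and 1 proteasome gene, Psmb3, was lower on all 3 arrays (778.8, 730.6 and 840.3 against 905.3, 850.6 and 973). Psmb5, the largest difference of the proteasome list, read 2139.4, 1258.1 and 510.0 against 405.9, 511.5 and 698.2, in overlapping groups, and its other probe sets gave -1.11 ± 0.65 and -0.04 ± 0.73. BSO replicate 1 was low in several abundant genes, as in Sod1 above and in the ribosomal gene Rpl19 (239.3 beside 3002.9 and 3592.4 on the other BSO arrays). Without that array the medians were 0.06 for the proteasome and -0.06 for oxidative phosphorylation. Other settings raised them, up to 0.33 and 0.37. Tempol and BSO replicate 3 was also low in its group. Its mean log2 signal was 8.749 beside 9.221 and 9.03 for the proteasome list, and 9.454 beside 10.042 and 9.975 for oxidative phosphorylation.

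Over all 39 lists, 779 of the 883 genes named were measured and 0 passed. Arrays lay wholly above for 30 of them (3.85%, beside 4.17% of all 14217 genes) and wholly below for 21 (2.7%, beside 3.81%). An unadjusted limma p under 0.05 was found for 26 (3.34%, beside 3.67%), so that no count was above the share over all genes. List medians ran from -0.40, for the superoxide-producing oxidases and nitric oxide synthases, of which 4 of 12 were higher, to 0.30, for 9 red cell genes. Both moved with the setting: the first was -0.05 without tempol and BSO replicate 1, -0.18 without BSO replicate 1 and -0.20 with probe sets under a signal of 64 left out. The second was 0.04 without tempol and BSO replicate 2, 0.03 without BSO replicate 1, 0.10 without BSO replicate 3 and -0.02 with the signal limit. With 32 added to each signal they were -0.25 and 0.15. In the first list, Ncf1, a subunit of the phagocyte oxidase, read 32, 56.0 and 146.4 against 112.8, 281.9 and 189.1 (-1.51 ± 0.85), and Nos2, the inducible nitric oxide synthase, 90.0, 45.9 and 124.9 against 238.8, 223.3 and 69.0 (-0.94 ± 0.72). Both sets of arrays overlapped.

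**Figure D4:**
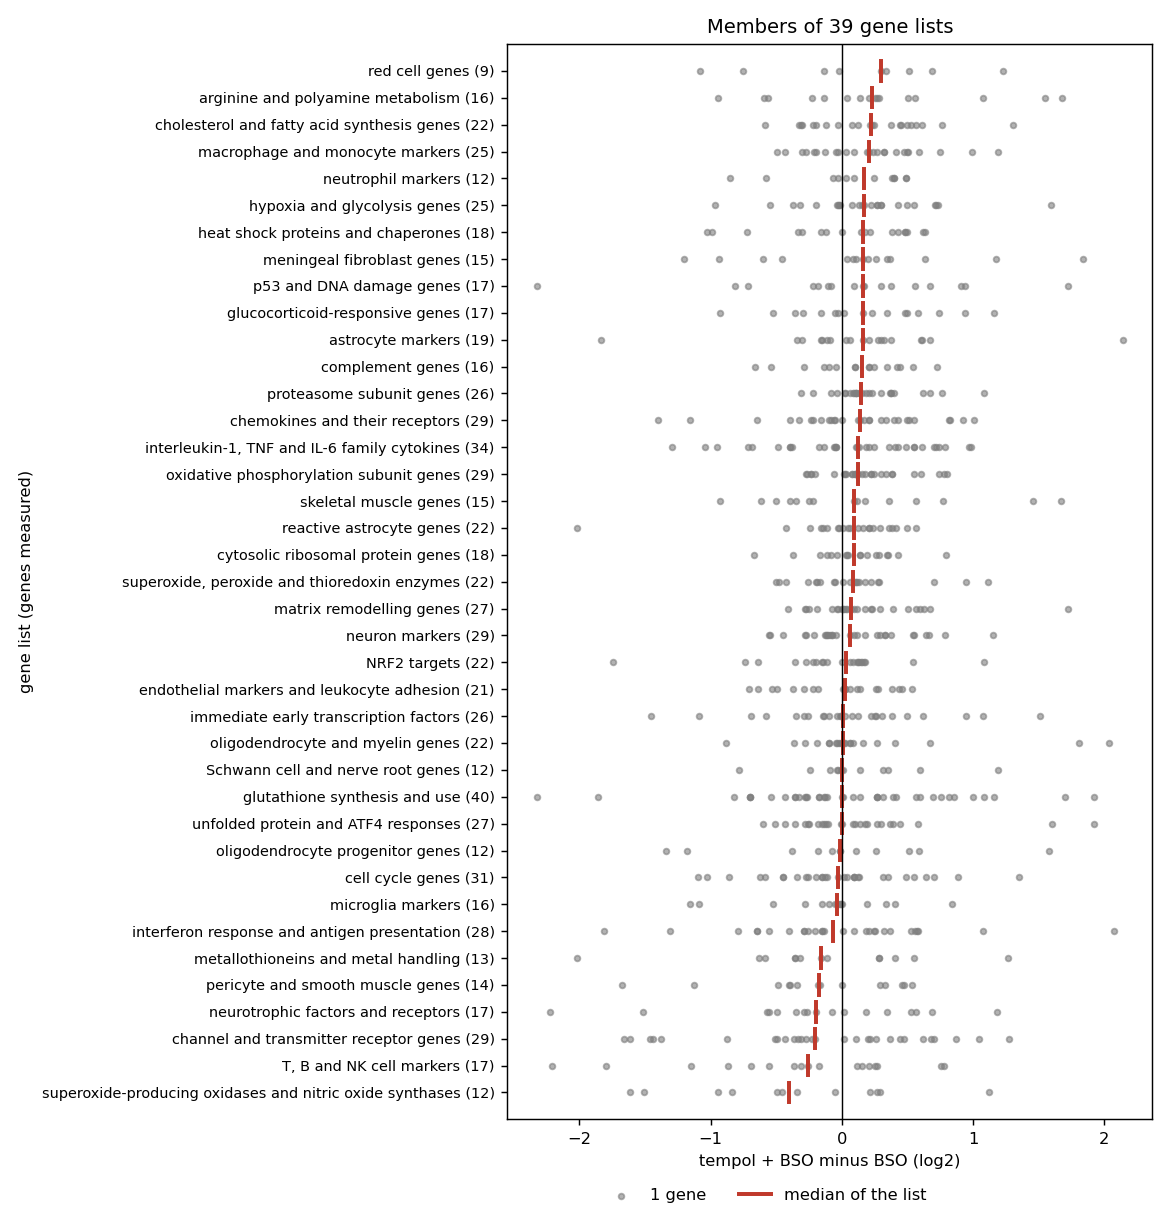
Log2 difference (horizontal axis) of each measured gene (grey point) in 39 gene lists, with the list's median (red line) and the number of genes measured in parentheses. The medians lie between -0.40 and 0.30 while single genes spread to more than 2 on either side.

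Whether the tempol difference depended on BSO was tested directly, as the tempol difference under BSO minus that without BSO (3 tempol arrays against 2 untreated contusion arrays). With limma 0 probe sets passed (0%; smallest adjusted p 0.496), and 1068 (3.44%) had an unadjusted p under 0.05. The median SE of this double difference was 1.02, larger than that of the single one. Of the 10 leading higher genes 6 had the opposite sign without BSO, and of the 10 lower genes 4, with differences without BSO from -1.52 to 1.03. The share of opposite signs over all genes is not given here, so that these counts cannot show a dependence on BSO.

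Fbxo3, Herpud1 and Acer3 are among the 5 genes with the smallest p here (mean signal at least 64). The double difference holds the same 6-array difference that chose them above, so this is no second finding for them. Fbxo3 read 134.7 and 149.6 after contusion alone and 59.6, 53 and 69.7 after tempol, lower on all tempol arrays, where under BSO the tempol arrays were higher (double difference 3.82 ± 0.66 SE, limma adjusted p = 0.496). Herpud1 read 122.5 and 134.9 after contusion alone and 51.4, 42.6 and 59.4 after tempol, again lower (3.27 ± 0.68, adjusted p = 1.00). In both genes either agent alone went with a low signal. After both agents the lowest array read 90.1 for Fbxo3 and 62.5 for Herpud1, below the untreated contused cords. The Herpud1 value lay close to the highest array of tempol alone (59.4). The other arrays given both read near or above the untreated contused cords.

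Acer3 and Cenpb, which encodes a centromere protein, had a like order, low with either agent alone and higher with both. Acer3 read 151.5 and 162.7 after contusion, 72.5, 78.2 and 94.2 after tempol, 140.7, 66.9 and 78.3 after BSO and 264.6, 226.7 and 285.5 after both (2.46 ± 0.56). The Acer3 arrays given both lay above those of contusion alone, and 1 BSO array (140.7) lay close to the latter. For tempol and BSO against BSO, the other probe sets of Acer3 gave 0.33 ± 0.62 and -0.05 ± 0.52. Cenpb read 429.9 and 255.3, then 103.9, 159.9 and 88.6, then 152.6, 118.7 and 70.0, and 430.1, 411.0 and 210.5 after both (3.17 ± 0.74). Rnf180, a ubiquitin ligase of the membrane, had the reverse order, with 36.2 and 25.9 after contusion, 115.6, 53.4 and 79.5 after tempol, 63.8, 83.4 and 98.9 after BSO and 17.7, 41.0 and 27.9 after both (-2.93 ± 0.64). Adjusted p was 1.00 for each of these 3. Ngfr, fainter than the limit of 64 (mean signal 50.42), had a double difference of -4.05 ± 0.91 (adjusted p = 1.00), reading 21.2 and 13.9 after contusion, 101.7, 103.3 and 93.8 after tempol, 146.0, 36.3 and 66.4 after BSO and 38.3, 13.1 and 30.0 after both. The 15 antioxidant genes in the plot of log2 signal by array had double differences from -0.56 (Mt1) to 1.57 (Sod1).

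**Figure D5:**
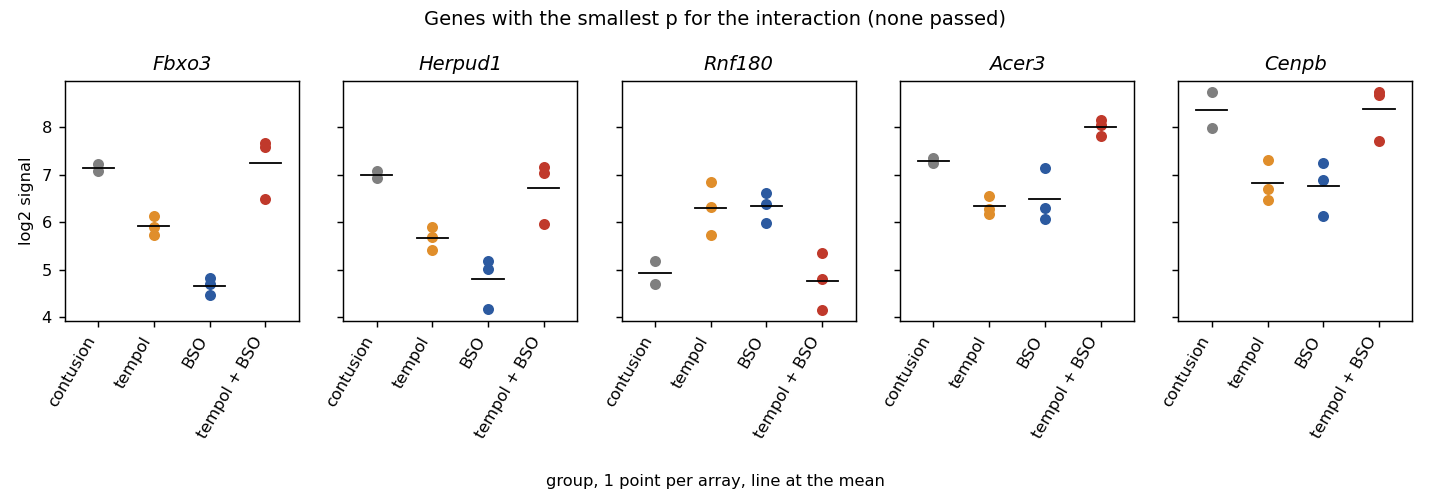
Log2 signal (vertical axis) of the 5 genes with the smallest p for the double difference among those with a mean signal of at least 64, by group, 1 point per array and a line at the mean of each group. In Fbxo3, Herpud1, Acer3 and Cenpb the arrays of either agent alone lie low and those of both agents high, and in Rnf180 the order is reversed; none passed the test.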

How the data were processed

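RNA of each cord was biotin-labelled and hybridised to a 1-colour expression array, and 22 arrays in 8 groups were deposited as 1 table of 31099 rows. The values are intensity values on a linear scale as deposited by the authors. RMA is named in the submitters' processing notes, but each array's 2% trimmed mean is 250.0 to 250.1 and the distributions differ between arrays. The sources used here do not say how the table was scaled. The 57 control rows, which hold the 2 empty cells, were left out. Probe sets were named from the platform annotation and RefSeq: 20826 had 1 symbol, 436 several and 9780 none.

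Log2 values were fitted with limma 3.58.1 (R 4.3.3) as 8 group means over all 22 arrays (14 residual and 4.713 prior degrees of freedom), and p-values were adjusted by Benjamini-Hochberg with a threshold of 0.05. The fit was tested on simulated data. Genes named are the 10 smallest p in each direction, up to 4 smallest p in each of 39 lists, 15 set antioxidant genes and the 5 smallest interaction p, all with the limits given in the text; the genes with narrow intervals, the other unfolded protein genes, Psmb3 and Ntrk2 were added after their values were seen. The members and lists were chosen with earlier results of these data known. Replicate numbers did not pair the arrays: deviations of same-numbered arrays correlated at -0.132, 0.056 and -0.096. The number of arrays limits the precision. The sequence of 1 promoter match is not reported here.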

Additional observations from a re-analysis of the deposited data

How the results depend on the processing

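Under 22 alternatives, 0 probe sets passed for tempol and BSO against BSO, and 0 for the double difference, except that leaving out single arrays gave 0 to 1 for the first. Without tempol and BSO replicate 2, Cinp passed (395.6, 38.3 and 312 against 26.9, 43 and 26.3; adjusted p = 0.0451), and without BSO replicate 3 a probe set with no gene name passed (adjusted p = 0.0454). With replicate number as a block the count was 0 (smallest adjusted p 0.646); over all alternatives the smallest ran from 0.0451 to 1. The 20 leading genes kept their sign in all alternatives. Their arrays were apart by the rule that chose them, so that leaving out arrays or adding an offset could not turn the sign. The kept sign is therefore no support for these genes. Alternatives were quantile normalization, median centring, an offset of 32, a signal filter of 64, trend and robust shrinkage, only the compared groups, leaving out the arrays that stand apart, array weights, the block, and, chosen after seeing the data, the hybridization spikes and the GAPDH end ratio as covariates.

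Signs turned in genes with small or variable differences. With the GAPDH end ratio, Rpl30 was at 0.024, Slc7a11 at 0.53, Hmox1 at -0.15 and Mt2A at 0.39. With array weights Srxn1 was at -0.10, and with the spikes Cat was at -0.007. Leaving out single arrays gave ranges that crossed 0 for 25 genes: Sod1 from -0.13 to 1.75, Txn2 from -0.83 to 0.36, Cbr3 from -1.26 to 0.024, Mt3 from -1.35 to 0.063, Np4 from -1.56 to 0.20, Arg1 from -0.003 to 0.97, Fcrl2 from -0.14 to 1.34, Cd44 from -0.21 to 1.22, Vcan from -0.13 to 1.05, Hemgn from -1.34 to 0.27, Cfp from -1.55 to 0.11, C5ar1 from -0.98 to 0.17, Ndufs3 from -0.049 to 1.16, Rpl19 from -0.47 to 1.49, Gclc from -0.23 to 0.13, Gclm from -0.43 to 0.76, Gss from -0.053 to 0.72, Slc7a11 from -0.41 to 0.28, Hmox1 from -0.047 to 0.22, Nqo1 from -0.032 to 0.28, Srxn1 from -0.47 to 0.82, Txnrd1 from -0.060 to 0.24, Cat from -0.16 to 0.39, Mt1 from -1.07 to 0.51 and Mt2A from -0.56 to 0.21.
The cause was not tested beyond the array left out.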
